A study of Rattus norvegicus with 6 samples.

Results

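A group of 6 acute-phase genes was followed in lung tissue of Lewis rats after chronic inhalation of silica. They are the serum amyloid gene Saa3, the alpha-1-acid glycoprotein gene Orm1, the haptoglobin gene Hp, the lipocalin 2 gene Lcn2, the lipopolysaccharide-binding protein gene Lbp and the ceruloplasmin gene Cp. The genes were chosen by name with the silica-to-control difference of these same arrays known, so their own differences are given as a description, with no test. All probe sets annotated to one of these genes alone were taken, which gave 8 probe sets for 6 genes, of 31042 probe sets and 14217 named genes on the array. Saa3, Orm1, Hp, Lcn2 and Lbp had 1 probe set each and Cp had 3.

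The silica group held 3 rats that inhaled an aerosol of crystalline silica dust (Min-U-Sil 5) at 6.2 mg/m3, with daily sessions of 6 hours on 5 days of each week for 6 weeks. The control group consisted of 3 rats that inhaled filtered air in similar chambers. Both groups were of the inbred Lewis strain, and each array held the lung RNA of 1 animal. The sources used here give neither age nor sex, nor the time from last exposure to tissue collection, nor hybridisation batches. Signals are linear intensities in arbitrary units, scaled to a common level per array, and can be compared between animals within a probe set but not between probe sets. A log2 fold change is silica minus control on log2(signal + 16), with its SE, and understates the change of dim genes.

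The acute-phase response is the change in plasma proteins that follows infection or tissue injury, and the liver makes most of these proteins. Interleukin 6 and related cytokines, acting through STAT3, and interleukin 1 and tumour necrosis factor, acting through NF-kB and C/EBP factors, are its main inducers. Several acute-phase genes are also transcribed outside the liver, in lung by epithelial cells, macrophages and neutrophils, where their products bind microbial ligands, iron, heme proteins or small hydrophobic molecules.

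The sequence before the transcription start is shown for the 4 of the 6 genes with an entry in the RefSeq promoter set for the rat assembly GRCr8. Letters of motifs for the factors named above were searched in these sequences. Each line gives the 250 bases before the annotated start, 5′ to 3′ on the gene's strand, and capitals mark motif matches.
Saa3: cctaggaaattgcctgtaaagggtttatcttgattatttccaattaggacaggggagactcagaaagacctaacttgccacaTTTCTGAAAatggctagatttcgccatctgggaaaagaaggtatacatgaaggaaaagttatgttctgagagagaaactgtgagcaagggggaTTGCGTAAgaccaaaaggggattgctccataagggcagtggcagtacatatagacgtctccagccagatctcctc
Orm1: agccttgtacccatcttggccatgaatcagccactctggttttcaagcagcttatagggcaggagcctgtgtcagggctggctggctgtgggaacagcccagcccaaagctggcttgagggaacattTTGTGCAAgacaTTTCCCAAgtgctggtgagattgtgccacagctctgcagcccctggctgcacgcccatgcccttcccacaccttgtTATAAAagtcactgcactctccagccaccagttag
Lcn2: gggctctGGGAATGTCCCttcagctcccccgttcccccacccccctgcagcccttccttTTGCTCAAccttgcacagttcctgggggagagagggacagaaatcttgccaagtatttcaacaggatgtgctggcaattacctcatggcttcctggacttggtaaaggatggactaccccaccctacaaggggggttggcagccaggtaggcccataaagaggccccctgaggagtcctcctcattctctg
Cp: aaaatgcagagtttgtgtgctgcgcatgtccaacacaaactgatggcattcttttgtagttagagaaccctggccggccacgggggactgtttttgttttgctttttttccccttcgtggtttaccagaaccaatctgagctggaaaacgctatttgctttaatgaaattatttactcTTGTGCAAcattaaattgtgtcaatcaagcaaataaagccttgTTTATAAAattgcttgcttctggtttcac
These stretches lie at chr1:106358431-106358680 on the minus strand (Saa3), chr5:81788259-81788508 on the plus strand (Orm1), chr3:36081781-36082030 on the minus strand (Lcn2) and chr2:104368420-104368669 on the plus strand (Cp). The letters searched, on both strands, were TTNNGNAA for C/EBP, TTCNNNGAA for STAT factors, TATAAA for the TATA box and, for NF-kB, a run that begins GGGA and ends TCC with any 3 bases between. They were settled after the sequences had been seen. All 4 stretches held the C/EBP letters, which 37.2% of 33469 stretches of this length in the set also held. In Orm1 and in Cp the match was the same run, TTGTGCAA, beginning 123 and 72 bases before the start. Saa3 held TTGCGTAA beginning 75 bases before the start, matching on both strands, and a pair of overlapping matches farther upstream, while Orm1 held another match, TTTCCCAA, 111 bases before the start. In Lcn2 the C/EBP letters began 191 bases before the start, and it alone of the 4 held the NF-kB letters, as a pair of overlapping matches in GGGAATGTCCC from 243 bases before the start. The NF-kB letters were in 3.38% of all stretches and the STAT letters, found in none of the 4, in 7.67%. Orm1 and Cp also held TATAAA, beginning 35 and 27 bases before the start, as did 12.9% of all stretches (in Cp it overlapped a match on the other strand). These matches are letters in a window and were not measured as binding sites.

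In lung, Saa3 and Orm1 differed most between silica and control animals, Lcn2 and Hp differed severalfold from a bright control level, Lbp differed modestly and evenly, and the brightest Cp probe set did not separate the groups. Counting brightest probe sets, the 3 silica arrays lay above the 3 control arrays in 5 of 6 genes, where 18.7% of the 14217 genes were apart in that direction. Since the genes were picked on this contrast, nothing is read from that count. The median log2 fold change over the 6 genes was 1.72, beside 0.023 over all genes.

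**Figure D1:**
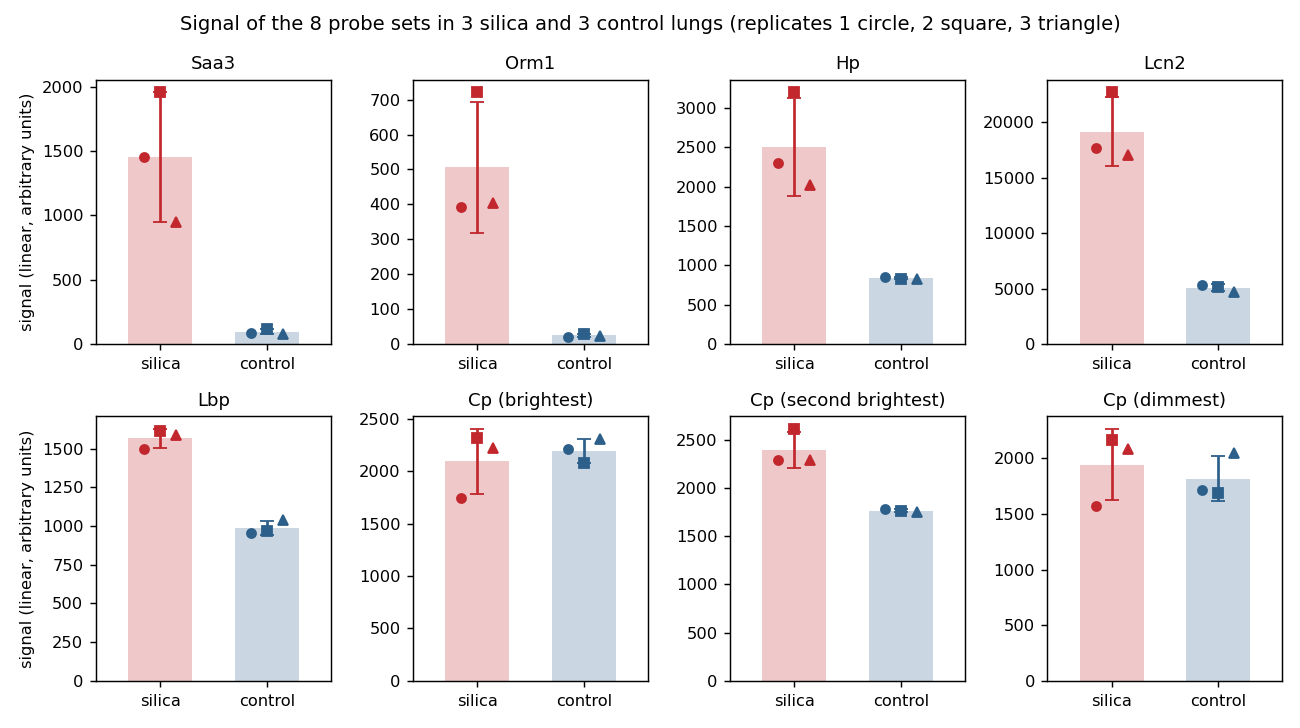
Linear signal of each of the 8 probe sets, silica left and control right; bars are group means, error bars the SD of 3 animals, points single animals. The silica animals sit above the control animals in every panel except those of the brightest and the dimmest Cp probe set.

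Saa3 encodes an apolipoprotein-like serum amyloid A that in rodents is made mainly outside the liver, by macrophages, adipose tissue and epithelium. Its signal was 1453, 1955 and 947 in the silica lungs and 87.8, 118.5 and 80.7 in the control lungs. The lowest silica animal was thus 7.99-fold above the highest control animal. The group means were 1452 ± 504 in silica and 95.7 ± 20.1 in control (SD, n = 3 each), a 15.2-fold ratio. On the log2 scale the difference was 3.67 ± 0.28. The silica animals differed among themselves as well, with 2.06-fold between the highest and the lowest.

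Orm1 encodes alpha-1-acid glycoprotein, a plasma lipocalin that carries basic and neutral drugs and modulates immune cells. Its signal was 392, 721 and 404 in silica and 22.0, 30.0 and 23.7 in control. Here the lowest silica animal was 13.1-fold above the highest control animal, the widest gap of the 8 probe sets. The means were 506 ± 186 in silica and 25.2 ± 4.21 in control (SD, n = 3 each), a 20.0-fold ratio. The control signals were close to the pseudocount, so the log2 fold change of 3.61 ± 0.25 depends on it: it was 4.22 with a pseudocount of 1 and 2.63 with 64. Saa3, which was brighter in control, had 3.87 and 3.20 under the same settings, so which of the 2 genes had the larger change on the log2 scale depends on the pseudocount.

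Hp encodes haptoglobin, which binds free hemoglobin and hands it to the macrophage receptor CD163. Its signal was 2299, 3196 and 2014 in silica and 852, 825 and 832 in control. The control animals were nearly identical, with an SD of 1.69% of the mean, while the silica animals had one of 24.6%. The groups did not overlap, the ratio of means was 2.99 and the log2 fold change was 1.54 ± 0.18.

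Lcn2 encodes lipocalin 2, which withholds iron by binding bacterial siderophores and is made by epithelium and stored in neutrophil granules. It was bright in both groups, at 17667, 22701 and 17082 in silica and 5352, 5153 and 4746 in control. Every silica animal was at least 3.19-fold above every control animal. The means were 19150 ± 3089 in silica and 5083 ± 309 in control (SD, n = 3 each), and the log2 fold change was 1.90 ± 0.14.

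Lbp encodes the plasma protein that transfers lipopolysaccharide to CD14 and the TLR4 complex. Its signal was 1496, 1611 and 1589 in silica and 956, 965 and 1040.4 in control. This was the most even of the 6 genes within the silica group, with an SD of 3.90% of the mean, and the groups did not overlap. The ratio of means was 1.59 and the log2 fold change 0.66 ± 0.095.

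Cp encodes ceruloplasmin, a copper ferroxidase that oxidises ferrous iron so that it can be loaded on transferrin. The brightest probe set gave 1742, 2316 and 2222 in silica and 2207.5, 2074 and 2303 in control. The groups overlapped, and the log2 fold change was -0.077 ± 0.14. The second brightest probe set gave 2290.3, 2609 and 2286 in silica and 1780, 1763 and 1747 in control. In it the groups did not overlap, and the log2 fold change was 0.44 ± 0.10. The dimmest probe set gave 1576, 2168 and 2086.5 in silica and 1718, 1689 and 2049 in control, which overlapped, with a log2 fold change of 0.086 ± 0.16.

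The Cp probe sets therefore did not move alike, and the one that separated the groups is annotated to another transcript record than the other 2, which share theirs. Rat Cp is known to be spliced into a secreted form and a form anchored in the membrane by glycosylphosphatidylinositol. The sources used here do not say which form each probe set reports. Within each array, the second brightest probe set over the brightest one gave a ratio of 1.31, 1.13 and 1.03 in silica and 0.806, 0.850 and 0.758 in control, with no overlap between the groups. Over the dimmest one it gave 1.45, 1.20 and 1.10 in silica and 1.04, 1.04 and 0.852 in control, again without overlap. A ratio within an array shows unequal change and not that either probe set was constant. RNA quality, given below, varied alongside these ratios, and its part in them was not tested. With the 3 Cp probe sets averaged, the log2 fold change of Cp was 0.15.

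Silica replicate 2 had the highest signal of the 3 silica animals in all 8 probe sets. Over all 31042 probe sets this array was the highest of the silica arrays in 34.8%, and in 52.4% of the 290 probe sets that were higher in silica at a limma adjusted p under 0.05. These 290 made up 0.934% of all probe sets, and 45 others, 0.145%, were lower. On the log2 scale silica replicate 2 stood 4.16 above the control mean in Saa3, where silica replicates 1 and 3 stood 3.73 and 3.12 above it. In Orm1 the heights were 3.31, 4.16 and 3.35 for silica replicates 1, 2 and 3. The lowest silica animal was replicate 1 in Orm1, Lbp and Cp and replicate 3 in Saa3, Hp and Lcn2. Without silica replicate 2 the log2 fold changes were 3.43 in Saa3, 3.33 in Orm1, 1.35 in Hp, 1.77 in Lcn2, 0.64 in Lbp and -0.16 in Cp. The spread of log2 values was larger in silica than in control in 7 of the 8 probe sets, Lbp being the exception. Of these 8, 3 are of Cp, and the share over all probe sets was not counted, so nothing is read from this.

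**Figure D2:**
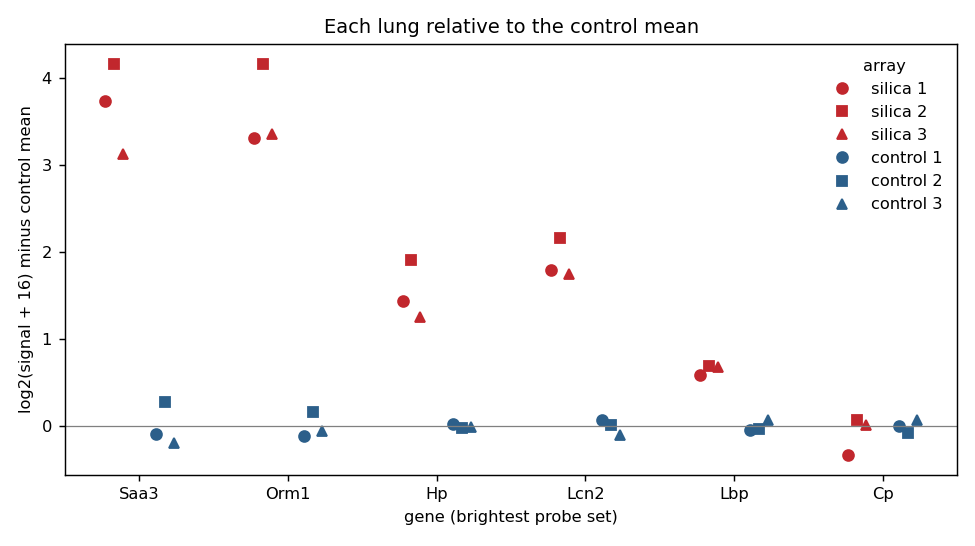
Height of each animal above the control mean in log2(signal + 16), for the brightest probe set of each gene; red silica, blue control, symbols by replicate number. Silica replicate 2 (square) is the highest silica animal in all 6 genes, and Cp is the gene in which the groups overlap.

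RNA quality was not alike in all animals. The mean log2 ratio of 3-prime to 5-prime signal of the beta-actin and GAPDH control probe sets, which is higher where RNA is more degraded, was 1.67, 1.50 and 1.15 in silica and 1.23, 1.20 and 0.996 in control. With it as a covariate the log2 fold changes were 3.27 in Saa3, 3.54 in Orm1, 1.39 in Hp, 1.80 in Lcn2, 0.72 in Lbp and 0.080 in Cp. In the second brightest and the dimmest Cp probe set they were 0.41 and 0.31, so that with this covariate the dimmest one lay nearer to the second brightest than to the one whose transcript record it shares. Among the silica animals both within-array Cp ratios fell in the same order as the 3-prime to 5-prime ratio. In control both were lowest in replicate 3, where the 3-prime to 5-prime ratio was lowest too. Silica replicate 3 had a lower 3-prime to 5-prime ratio than control replicates 1 and 2 but higher Cp ratios. The part of RNA quality in the Cp ratios was not tested. The median log2 value of an array was 7.38 to 7.42.

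Other positive acute-phase genes, a list of 30 plasma and host-defence proteins of which 23 had a probe set of their own, rose in 4 cases and fell in none (limma with Benjamini-Hochberg adjustment over all probe sets, adjusted p under 0.05). Of all genes, 1.55% rose and 0.12% fell by this test. The list's median log2 fold change was 0.51, beside 0.023 over all genes. The 4 were Pla2g2a, C3, Hpx and Itih3. With any 1 of the 6 arrays left out, 0 of the 23 passed, although 12 to 14 had an unadjusted p under 0.05 in each case, where 19.9% of all genes had one with all 6 arrays. With all arrays kept, 0 passed with the RNA quality covariate (9 at an unadjusted p under 0.05 in limma; adjusted p 0.206 to 0.285 for the 4 genes) and 0 with a pseudocount of 1 (adjusted p 0.0533 to 0.0764).

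Pla2g2a, a secreted phospholipase A2 that is bactericidal, had 1955, 1094 and 2256 in silica and 312, 336 and 427.5 in control. It rose with a log2 fold change of 2.20 ± 0.29 (limma, adjusted p = 0.0411). Unlike the members, it was lowest in silica replicate 2 among the silica animals. Complement C3, the central component of the complement cascade, rose to 13560 ± 1931 in silica, against 5362 ± 323 in control (SD, n = 3 each; log2 fold change 1.33 ± 0.13, limma adjusted p = 0.0270). Hpx, hemopexin, which binds free heme as haptoglobin binds hemoglobin, had 146, 177 and 146 in silica and 50.1, 62.5 and 56.0 in control, and rose by 1.25 ± 0.12 on the log2 scale (limma, adjusted p = 0.0267). Itih3, a heavy chain of the inter-alpha-inhibitors that bind hyaluronan, had 58.7, 77.9 and 49.0 in silica and 12.7, 16.9 and 21.3 in control, and rose by 1.23 ± 0.17 on the log2 scale (limma, adjusted p = 0.0458). Its control signals lay near the pseudocount, and the log2 fold change was 1.81 with a pseudocount of 1 and 0.63 with 64.

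Crp, the fibrinogen genes and A2m did not pass. Crp, the pentraxin C-reactive protein, was dim throughout, with 2.0, 10.3 and 4.3 in silica and 1.9, 2.6 and 2.9 in control. Among the fibrinogen chain genes, the probe sets of Fga and Fgb were dim, at 18.9 to 36.2 and 14.9 to 33.7 in silica and at 3.8 to 25.8 and 17.9 to 28.8 in control. Fgg, the gamma chain, gave 5238, 5056 and 4342 in silica and 3663, 3146 and 3475 in control, with no overlap and a log2 fold change of 0.51 ± 0.12 (limma, adjusted p = 0.127). A2m, alpha-2-macroglobulin and a major reactant of rat liver, gave 60.8, 56.7 and 57.2 in silica and 33.5, 19.3 and 45.2 in control (log2 fold change 0.64 ± 0.21, limma adjusted p = 0.200). C9, of the terminal complement complex, and Steap4, a metalloreductase, had log2 fold changes of 0.81 ± 0.18 and 0.65 ± 0.17, and the kininogen gene Kng2l1 had -0.46 ± 0.11 (limma, adjusted p = 0.106, 0.147 and 0.125). Further probe sets of Kng2l1 had -0.53 and 0.087.

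Negative acute-phase genes, whose liver expression falls in an acute-phase response, gave 1 rise and 0 falls among 9 genes measured of 10 listed. Of all genes, 1.55% rose and 0.12% fell by the same test. Of the 9, 3 had an unadjusted p under 0.05 in limma, where 19.9% of all genes had one. The list's median was 0.30. The rise was in Fetub, fetuin B, a cystatin-family plasma protein, which had 4932, 4899 and 4397 in silica and 2393, 2373 and 2172 in control (log2 fold change 1.03 ± 0.10, limma adjusted p = 0.0270). With any 1 array left out Fetub did not pass, and its log2 fold change was between 0.99 and 1.08. With all arrays kept it did not pass with the RNA quality covariate (log2 fold change 0.92, adjusted p = 0.182) or with a pseudocount of 1 (adjusted p = 0.0558). Alb, albumin, gave 182, 56.3 and 195.9 in silica and 79.0, 41.6 and 283 in control, a wide spread in both groups. Ttr, the thyroxine carrier transthyretin, gave 51.8, 52.7 and 105.9 in silica and 43.7, 44.5 and 86.8 in control. Apoa2, an apolipoprotein of high-density lipoprotein, was dim in control, at 3.0, 5.7 and 4.9, and gave 37.4, 11.4 and 37.0 in silica (log2 fold change 1.06 ± 0.27, limma adjusted p = 0.147). The other genes nearest to the threshold were Rbp4, the retinol carrier, with -0.61 ± 0.25, Hrg with -0.39 ± 0.22 and Ahsg, fetuin A, with 0.33 ± 0.17 (limma, adjusted p = 0.280, 0.414 and 0.387).

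**Figure D3:**
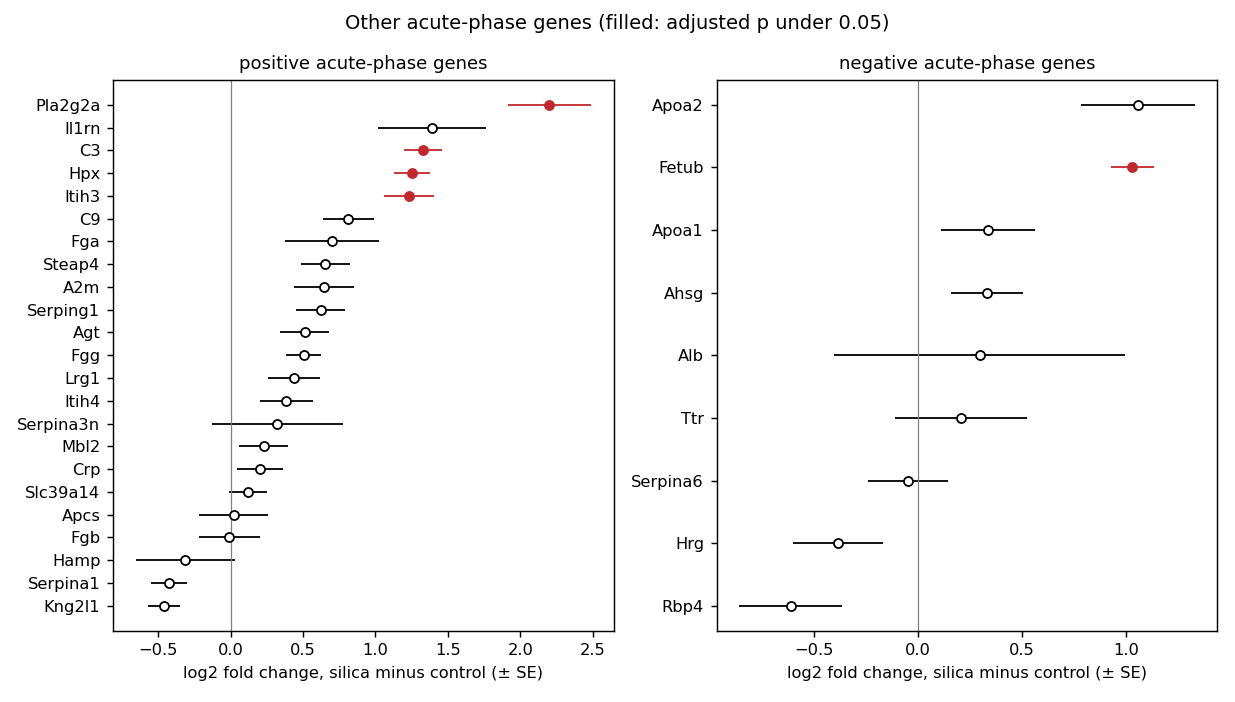
Log2 fold change (silica minus control) with SE of each positive (left) and negative (right) acute-phase gene outside the 6, by brightest probe set; filled points passed an adjusted p under 0.05. Pla2g2a, C3, Hpx and Itih3 are filled on the left, and Fetub alone on the right.

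Among the inducers, a list of 32 cytokines, receptors and transcription factors of which 27 were measured, 0 passed over all probe sets. An unadjusted p under 0.05 in limma was found in 11 of the 27, where 19.9% of all genes had one. The list's median log2 fold change was 0.29. Tnf, which encodes tumour necrosis factor, gave 163.6, 266 and 180.0 in silica and 87.3, 38.7 and 54.9 in control (log2 fold change 1.54 ± 0.28, limma adjusted p = 0.0767). Il6 was dim, with 37.0, 70.1 and 42.8 in silica and 15.7, 30.3 and 11.2 in control. Il1b gave 886, 1612 and 1006 in silica and 614, 773.5 and 573 in control, again without overlap. In these probe sets of Tnf, Il6 and Il1b, silica replicate 2 was the highest silica animal, as in 34.8% of all probe sets. The further Tnf probe set gave 4.2, 44.1 and 44.7 in silica and 22.6, 4.7 and 4.5 in control, so there silica replicate 3 was highest and the groups overlapped. Of the 27 genes, 22 had log2 fold changes above 0 and 5 below. Osm, oncostatin M, an interleukin 6 family cytokine, overlapped between the groups, with 104.7, 121.6 and 143.6 in silica and 111.5, 54.8 and 50.2 in control.

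On the signalling side, Stat3 gave 2306, 4147 and 2633 in silica and 2666, 2826 and 2661 in control, so that silica replicate 2 stood alone above all other animals. Its log2 fold change of 0.11 ± 0.22 was -0.14 without that array. Socs3, the feedback inhibitor that STAT3 induces, had -0.14 ± 0.16 (limma, adjusted p = 0.704). Of the C/EBP genes, Cebpb and Cebpd had 0.34 ± 0.16 and 0.17 ± 0.16, with overlapping groups. Nfkbiz, an NF-kB cofactor required for Lcn2 induction in mouse cells, came nearest to the threshold in the list: it gave 1192, 997 and 1212 in silica and 714, 680 and 621 in control (log2 fold change 0.74 ± 0.12, limma adjusted p = 0.0604). Further probe sets, none past the threshold, had 0.54 for Stat3, 0.59 for Nfkbiz, 0.72 for Tnf, and -0.21 and 0.20 for Cebpd, so those of Cebpd differed in sign. After Nfkbiz and Tnf, the smallest p-values in the list were those of the interleukin 17 receptor gene Il17ra with 0.56 ± 0.13 and the kinase gene Tyk2 with 0.39 ± 0.11 (limma, adjusted p = 0.118 and 0.155).

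Receptors and partners of the 6 proteins rose in 2 of 17 genes measured, of 22 listed, and none fell. Of all genes, 1.55% rose and 0.12% fell by the same test. An unadjusted p under 0.05 in limma was found in 10 of the 17, where 19.9% of all genes had one. The list's median was 0.28. Mmp9, a gelatinase that lipocalin 2 binds and shields from degradation, had 197, 247 and 263 in silica and 55.7, 56.6 and 55.8 in control (log2 fold change 1.80 ± 0.13, limma adjusted p = 0.0127), and a further probe set had 1.89. Hmox1, heme oxygenase 1, which degrades the heme that haptoglobin and hemopexin deliver, had 1237, 1040.5 and 1240.5 in silica and 500.2, 510 and 499 in control (log2 fold change 1.19 ± 0.11, limma adjusted p = 0.0246). Without silica replicate 1 Mmp9 alone passed, and without any other single array neither did. With all arrays kept, neither passed with the RNA quality covariate (limma, adjusted p = 0.156 for Mmp9 and 0.171 for Hmox1).

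The partners of haptoglobin, lipocalin 2 and ceruloplasmin did not pass otherwise. Cd163, the haptoglobin-hemoglobin receptor, was dim and overlapped, with 39.6, 34.1 and 72.5 in silica and 42.4, 72.1 and 107.2 in control. Slc22a17, the proposed lipocalin 2 receptor, and Lrp2, megalin, had log2 fold changes of 0.22 ± 0.12 and 0.38 ± 0.13. Slc40a1, the iron exporter ferroportin with which ceruloplasmin works, had -0.16 ± 0.12. In the lipopolysaccharide pathway that Lbp serves, Cd14 gave 1510.2, 2551 and 1877 in silica and 1033, 1036.5 and 1203 in control (log2 fold change 0.82 ± 0.20, limma adjusted p = 0.136). Ly96, the TLR4 coreceptor MD-2, and Tlr2 had 0.47 ± 0.092 and 1.02 ± 0.20, while Tlr4 itself had -0.13 ± 0.10 (limma, adjusted p = 0.0863, 0.0908 and 0.553). Scarb1, a lipoprotein receptor that takes up serum amyloid A, had 0.49 ± 0.13 (limma, adjusted p = 0.150).

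**Figure D4:**
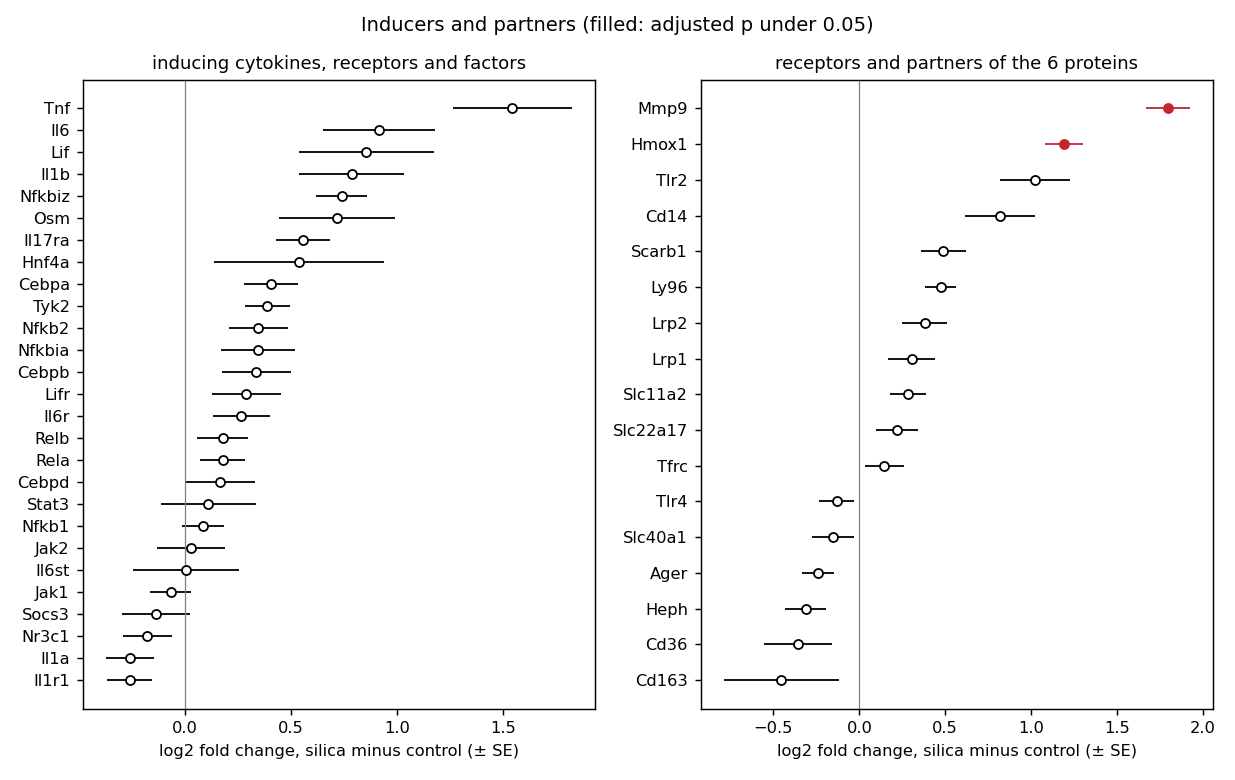
Log2 fold change (silica minus control) with SE of the inducers (left) and of the receptors and partners (right), by brightest probe set; filled points passed an adjusted p under 0.05. No inducer is filled, with Tnf farthest right, and Mmp9 and Hmox1 are the filled partners.

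Marker genes of cells that could carry these transcripts were measured in the same arrays. For the counts below, 19.9% of all genes had an unadjusted p under 0.05 in limma. In whole tissue, a change in the number of cells of a type and a change in RNA per cell cannot be told apart. Alveolar type 2 cell markers, which include surfactant genes, were bright in both groups, with a summed signal over 9 genes of 117178 to 137102 in silica and 126282 to 131304 in control. None of the 9 passed in limma, and 0 had an unadjusted p under 0.05. Hepatocyte markers were dim: the summed signal of 8 genes was 178 to 257 in silica and 173 to 196 in control, and none passed (1 had an unadjusted p under 0.05 in limma). The liver enzyme gene Tat was near 0, at 2.1 to 3.0 in silica and 1.5 to 3.8 in control.

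Neutrophil markers, of which 7 of 12 were measured, gave 0 calls and 1 unadjusted p under 0.05 in limma, with a median log2 fold change of 0.48. Their summed signal was 9757, 16387 and 9599 in silica and 5622, 7249.8 and 6538 in control, so silica replicate 2 was the highest here too. S100a8 and S100a9 gave most of this sum, at 3280 and 11972 in silica replicate 2. Camp and Cxcr1 were highest in silica replicate 1 among the silica animals, and the other measured list genes in replicate 2. Mmp8 and Cxcr1 overlapped between the groups, each with a log2 fold change of 0.071. S100a9, an abundant neutrophil calcium-binding protein gene and the 1 with that unadjusted p, gave 6976, 11972 and 7330.5 in silica and 3811, 4919 and 4465 in control. Within each array Lcn2 over S100a9 was 2.53, 1.90 and 2.33 in silica and 1.40, 1.05 and 1.06 in control, so Lcn2 was higher relative to that marker in every silica animal. The granule gene Camp and the receptor gene Cxcr2 were dim, at 11.9 to 84.1 and 37.4 to 55.8 in silica and at 4.0 to 43.7 and 32.5 to 60.0 in control. The part of neutrophils in the Lcn2 difference was not tested.

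Macrophage markers rose in 2 of 7 genes measured, Cd68 and Itgax (limma, adjusted p = 0.0431 and 0.0458), where 1.55% of all genes rose. The list median was 0.62, and 3 of the 7 had an unadjusted p under 0.05 in limma. Mrc1 and Csf1r overlapped between the groups, with log2 fold changes of 0.034 and 0.10. Cd68, a lysosomal membrane protein gene of macrophages, gave 4685, 5857 and 4870.4 in silica and 2717, 2906 and 2669 in control. With any 1 array left out, or with the RNA quality covariate, neither Cd68 nor Itgax passed. The summed signal of the list overlapped, at 31572 to 38512 in silica and 30783 to 32743 in control, and Lyz2, which gave the largest part of it, had a log2 fold change of -0.21. The part of macrophages in the Saa3 and Hp differences was not tested.

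Airway secretory markers had a summed signal over 7 genes of 29462 to 35250 in silica and 30151 to 39164 in control, with none passing and 2 at an unadjusted p under 0.05 in limma. Of the 7 log2 fold changes 5 were below 0, with a median of -0.13. The 2 genes went opposite ways and are named after their values were seen. Cyp2f4, a cytochrome P450 gene of club cells, gave 1345, 1575.5 and 1854 in silica and 2225, 1863 and 2411 in control, with no overlap (log2 fold change -0.44 ± 0.16, limma adjusted p = 0.243). The other was Bpifb1, a relative of Lbp secreted in airways, which gave 445, 754 and 438 in silica and 331, 78.5 and 193.6 in control (log2 fold change 1.52 ± 0.49, limma adjusted p = 0.204). Fibroblast markers gave 0 calls among 7 genes and 1 unadjusted p under 0.05 in limma, with a summed signal of 15909 to 17572 in silica and 15831 to 23014 in control. Adipocytes also make Saa3, Orm1, Hp and Lcn2, and their markers differed among the control animals: Adipoq, adiponectin, gave 55.6, 59.9 and 9.2 in silica and 210.7, 31.7 and 753 in control. By brightest probe set all 8 adipocyte markers had log2 fold changes below 0, none passed and 0 had an unadjusted p under 0.05 in limma. Further probe sets of Plin1 and Lipe went the other way, with 0.85 and 0.37. The summed signal of the 8 brightest probe sets was 1528 to 1744 in silica and 1664 to 3206 in control.

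**Figure D5:**
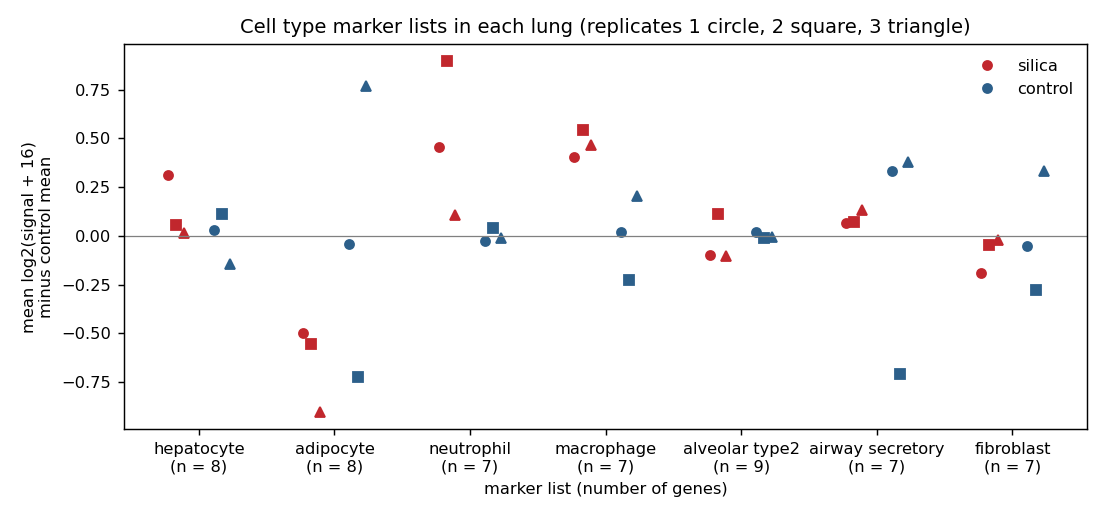
Mean over each marker list of log2(signal + 16) minus the control mean, 1 point per animal; red silica, blue control, symbols by replicate number. Silica replicate 2 (square) is highest in the neutrophil list, and the adipocyte list is highest in control replicate 3 (triangle).

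The genes whose pattern over the 6 arrays was most like that of the 6 genes were sought among 10103 other genes with a mean log2 value of at least 7. The measure was Pearson's r with the mean standardised profile of the 6 brightest probe sets, and with 2 groups it rests largely on the group difference. The highest values were those of Pak1ip1, Mcpt1, Mcpt10, Taf10, Sod2, Rnls, Cst7 and Kcnab2, with r between 0.994 and 0.997. An r over 0.95 was reached by 334 of the genes, 3.31%. The mast cell protease gene Mcpt1 gave 306, 505.5 and 341 in silica and 93.4, 86.9 and 95.3 in control. Sod2, mitochondrial superoxide dismutase, gave 2139.6, 3126 and 2339 in silica and 1172, 1192 and 1151 in control. In both, as in the other 6, silica replicate 2 was the highest animal and the groups did not overlap. The profile used for the search has both traits itself, so nothing is read from this. The size of the difference does not enter r: Taf10 had a log2 fold change of 0.18 ± 0.091. Taf10, Pak1ip1 and Rnls did not pass (limma, adjusted p = 0.367, 0.0584 and 0.110). Like the members these genes shared the arrays and their scaling, and their closeness is a description of these 6 animals.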

How the data were processed

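Lung RNA of 6 rats was measured on 1-colour short-oligonucleotide arrays with biotin-labelled cRNA, per the labels' protocols. The deposited intensity values are linear signals, 1 per probe set and array. The sources used here do not name the summarising software. Every array had a mean of 500.1 after trimming 2% at each end, so, judged from the values, the authors had scaled the deposited intensities by 1 factor per array. Precision is limited by the number of arrays.

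Of 31099 probe sets, 57 controls were left out. Names came from the platform annotation, updated by gene identifier (20758 of 20826 single-gene probe sets matched) to RefSeq. The brightest probe set stood for its gene. Groups were taken from the titles. Values were analysed as log2(signal + 16) with limma 3.58.1 in R 4.3.3 (no covariate, degrees of freedom 4 residual and 2.18 prior, Benjamini-Hochberg adjustment over 31042 probe sets, threshold 0.05), after testing the fit on simulated arrays. The 6 genes, the gene lists and the tests were chosen with earlier results of these data known. Genes named were, in each of the 4 acute-phase lists, those past the threshold, the 4 nearest to it and a fixed set of inducers, reactants and receptors, with marker genes given as examples. Nothing in the labels says that replicate numbers pair animals: deviations of same-numbered silica and control arrays from their group means correlated at 0.092, 0.035 and 0.088.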

Additional observations from a re-analysis of the deposited data

Results flagged for a closer look

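A probe set annotated to both Saa4, a constitutive serum amyloid A gene, and Hps5 was outside the comparisons because it names more than 1 gene. It was flagged because every silica animal lay above every control animal, which also held for 18.7% of all genes. It gave 67.4, 41.0 and 54.4 in silica and 36.2, 20.7 and 32.5 in control, a ratio of means of 1.82, and which gene it reports cannot be told apart.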

How the results depend on the processing

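Alternatives were quantile normalization, median centring, an intensity trend with robust spread, leaving out the dimmer 50% of probe sets, pseudocounts of 1 and 64, array weights, an RNA quality covariate, averaging a gene's probe sets, the replicate number as a block and each array left out. The median log2 fold change of the 6 genes lay between 1.56 and 1.83 without 1 array (lowest without silica replicate 2) and within that range elsewhere. Saa3, Orm1, Hp, Lcn2 and Lbp stayed positive in all 16 alternatives. Their groups did not overlap, so leaving out an array or changing the pseudocount could not turn the sign, and nothing is read from it. The brightest Cp probe set lay between -0.16 and 0.080, or 0.15 with the 3 Cp probe sets averaged. Of 31042 probe sets 335 passed, 290 higher and 45 lower. With the RNA quality covariate 0 passed (3184 at an unadjusted p under 0.05 in limma), with the replicate block 1, with pseudocount 1 43, with pseudocount 64 919, with the dimmer 50% left out 1657 (1041 higher, 616 lower), with the trend 1862 (1141 higher, 721 lower) and with 1 array left out 0 to 12. The positive acute-phase list (4) gave 0 with the covariate, the block, pseudocount 1 or any 1 array left out. In those settings 9 to 14 of its genes had an unadjusted p under 0.05 in limma. It gave 7 with the dimmer 50% left out (5 higher, 2 lower) and 10 with the trend (9 higher, 1 lower). The negative list (1) gave 0 with the covariate, the block, pseudocount 1 or any 1 array left out, with 2 to 4 at an unadjusted p under 0.05. The inducers (0) gave 3 with the dimmer 50% left out, 5 with the trend and 2 with pseudocount 64. The partners (2) gave 0 with the covariate or the block (6 and 8 at an unadjusted p under 0.05) and 0 to 1 with 1 array left out. They gave 5 with the dimmer 50% left out and 7 with the trend (6 higher, 1 lower). With the mean of all probe sets and with pseudocount 64 they gave 4 each. Leaving out an array lowers the degrees of freedom; the cause of the other shifts was not tested. For the replicate numbers no rule for calling animals paired was set. Same-numbered silica and control arrays correlated weakly, at 0.092, 0.035 and 0.088. Each silica array nonetheless correlated best with the control array of its own number, a hint from the data and not from the design. Signs turned in some genes, not all of them near 0. With the covariate Cd163 went from -0.45 to 0.10 and Cebpd from 0.17 to -0.012. Fgb went from -0.0094 to 0.065 with the mean of all probe sets and to 0.00049 with pseudocount 64. With the mean of all probe sets Rnls went from 0.44 to -0.14, so its probe sets did not move alike. With 1 array left out Alb ranged from -0.22 to 0.97, Fgb from -0.21 to 0.14, Stat3 from -0.14 to 0.28 and Ttr from -0.075 to 0.46. Orm1, Itih3, Crp, Fga, Il6 and the hepatocyte markers were dim in at least 1 group, where signal over background limits the fold changes.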
